A study of Mus musculus with 27 samples.

Results

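The nucleosome remodeling and deacetylase (NuRD) complex was followed here through the mRNAs of its 10 subunit genes Chd3, Chd4, Mta1, Mta2, Mta3, Hdac1, Hdac2, Mbd3, Gatad2a and Gatad2b. The genes were chosen by name as subunits of the complex, out of the 25209 genes listed in every table. No measured value entered that rule, but earlier results of these data were known when it was set. All 10 were found in each of the 8 tables, and all 10 passed the minimum mean level of 10 normalized reads.

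Messenger RNA was sequenced in 27 libraries of mouse V6.5 embryonic stem cells (mESCs) and of cells differentiated from them. WT cells were sequenced beside KO4 and KO8, which are 2 clones (#4 and #8) in which transcriptional terminators placed behind the third exon of Zfp512b were to stop its transcription. The inserted donor sequences also carried mCherry or puromycin resistance, and colonies positive for mCherry were characterized after selection with puromycin. Each KO group is a single clone, and the WT cells did not go through the editing and selection. Naive cells (Day 0, 3 libraries per group) were kept in 2iLIF medium with LIF and the inhibitors PD0325901 and CHIR99021. Primed cells (Day 2, 2 libraries per group) had spent that time in serum medium with LIF. Cardiomyocyte cultures (CM, Day 7.5, 2 libraries per group) came from embryoid bodies grown without LIF and with vitamin C. Neural progenitor cultures (NPC, Day 10, 2 libraries per group) came from embryoid bodies treated with retinoic acid. The labels do not say whether the libraries of a group came from separate cultures.

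The value used for each gene is the base mean, the average of its normalized reads over all libraries of a table. A table holds the WT libraries of 1 stage and those of KO4 or of KO8, so each stage has a KO4 table and a KO8 table that share their WT libraries. Each base mean therefore pools WT and KO cells. It has no spread between libraries, and no test could be made on it. The difference between KO and WT cells is not given here, because the columns that hold it are the results of the authors' own comparisons and were not used. The targeted gene cannot be checked in the same way: the base mean of Zfp512b was 697 and 675 in naive cells, 579 and 548 in primed cells, then 1325 and 1354 in NPCs, with 643 and 645 in CMs (KO4 table, then KO8 table, as in all pairs of values that follow). Each table was normalized on its own, so these base means do not compare stages. On the common scale described further on, Zfp512b lay above its naive level at every later stage. The log2 difference was 0.85 and 0.84 at the primed stage, 0.71 and 0.73 at the CM stage, and 1.69 and 1.71 at the NPC stage.

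NuRD joins a chromatin remodeling motor with histone deacetylation in 1 assembly. CHD3 or CHD4 is the ATPase that moves nucleosomes, HDAC1 and HDAC2 remove acetyl groups from histones, and the MTA proteins hold the deacetylases and the histone-binding RBBP proteins together. MBD3, or in its place the methyl-CpG-binding MBD2, joins the deacetylase part to GATAD2A or GATAD2B, which in turn contact the ATPase. Most subunits exist as paralogues that can replace each other, and in mESCs the complex with MBD3 is known for restraining genes of the pluripotent state during lineage commitment.

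The 250 bases in front of the first listed RefSeq start (GRCm38.p6) are printed for Mta1, Mta2, Gatad2a and Gatad2b, as pairs of paralogues whose mRNA ratio, given further on, differed between stages. Capitals mark the GC box GGGCGG, searched on both strands (CCGCCC). They are read 5′ to 3′ on the strand of the gene.
Mta1: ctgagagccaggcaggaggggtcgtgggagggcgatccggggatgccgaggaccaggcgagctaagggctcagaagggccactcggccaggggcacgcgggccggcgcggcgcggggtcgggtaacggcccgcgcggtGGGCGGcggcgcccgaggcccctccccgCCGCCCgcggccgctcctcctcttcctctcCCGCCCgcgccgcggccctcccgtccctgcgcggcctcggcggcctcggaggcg
Mta2: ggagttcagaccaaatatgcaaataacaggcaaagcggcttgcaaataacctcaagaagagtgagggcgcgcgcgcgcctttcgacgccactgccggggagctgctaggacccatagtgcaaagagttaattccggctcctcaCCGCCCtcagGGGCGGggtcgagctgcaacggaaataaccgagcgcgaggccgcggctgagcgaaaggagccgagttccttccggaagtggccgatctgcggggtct
Gatad2a: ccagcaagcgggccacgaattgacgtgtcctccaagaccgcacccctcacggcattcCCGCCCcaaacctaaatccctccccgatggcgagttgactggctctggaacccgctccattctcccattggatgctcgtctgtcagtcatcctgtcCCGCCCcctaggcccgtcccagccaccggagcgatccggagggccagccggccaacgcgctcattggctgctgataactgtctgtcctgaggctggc
Gatad2b: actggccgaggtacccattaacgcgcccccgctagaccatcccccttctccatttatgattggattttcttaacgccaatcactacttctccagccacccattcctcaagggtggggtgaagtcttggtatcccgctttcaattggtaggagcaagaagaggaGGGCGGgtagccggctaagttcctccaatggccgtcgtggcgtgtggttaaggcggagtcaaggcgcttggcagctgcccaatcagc

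The Mta1 window lies at chr12:113098028-113098277 (plus strand), the Mta2 window at chr19:8941670-8941919 (plus strand), the Gatad2a window at chr8:69996385-69996634 (minus strand) and the Gatad2b window at chr3:90292931-90293180 (plus strand). Each was found once, letter for letter, near its gene in mm9. They hold 39, 24, 18 and 13 CpG dinucleotides in that order, against a median of 6 over the 27025 genes of the table. Of the 10 members, 7 had a window in the table, and in all 7 the first window holds GGGCGG, which 32.9% of the 27025 genes have. CCAAT (or ATTGG) is in 3 of the 7 and in 34.5% of all genes, and TATAAA (or TTTATA) is in 1 of the 7 and in 13% of all genes. These are counts of letters and say nothing about which factors bind.

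The summed base means were 36.1 and 36.0 M normalized reads (M, megareads) in naive cells and between 16.8 and 18.6 M at the later stages. The 10 members made up between 0.237% and 0.267% of that sum in the 8 tables, with the lowest share in the CM KO8 table. The authors normalized each table on its own, so for comparisons between stages the 8 tables were brought to 1 scale with the median ratio over genes; a stage can then not be told apart from how its libraries were prepared. In bulk RNA, fewer cells of a type and less RNA per cell cannot be told apart either. The stage labels were checked against marker lists on the scaled level. The 8 naive markers summed to 92370 and 92880 in naive cells and to 3492 and 4025 in NPCs, and the 4 primed markers to 4259 and 4284 in naive and 29660 and 31170 in primed cells. The 7 neural progenitor markers summed to 5724 and 5901 in NPCs but to 9135 and 3642 in CMs. That list stood at 1461 and 1530 in naive cells, and its sum does not set NPCs apart from CMs. All 7 markers had a base mean of at least 10 in both NPC tables, against 5 in both CM tables and 2 in both naive tables. The 4 neuron markers summed to 4360 and 5738 in NPCs and to 2113 and 677 in CMs. The NPC name is used as the label gives it. The 8 cardiomyocyte markers summed to 34860 and 51140 in CMs and to at most 296.8 elsewhere.

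Markers of other cells also moved with the stage. The 5 fibroblast and smooth muscle markers summed to 36.07 and 41.96 in naive cells but to 5614 and 6786 in NPCs, about the sum of the neural progenitor markers there, and to 41440 and 76100 in CMs. The 5 endoderm markers summed to 13.86 and 15.48 in naive cells and to 655.5 and 729.2 in NPCs, and all 5 had a base mean of at least 10 in both NPC tables. The 4 endothelial markers summed to 3472 and 3603 in naive cells beside 5862 and 5153 in NPCs, and the 3 blood markers to 11.2 and 10.86 beside 166.9 and 403.6. The 4 neuron markers summed to 2934 and 2895 in naive cells and to 4360 and 5738 in NPCs. The part of these cells in the differences between stages was not tested.

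Among the ATPases, the mRNA of Chd3 moved over a wide range between stages, whereas that of Chd4 stayed among the most abundant in every table. In the coordinates of mm9, as in all gene positions that follow, the genes are Chd3 (chr11:69156775-69182928, minus strand) and Chd4 (chr6:125045999-125080609, plus strand). The base mean of Chd3 was 2531 and 2547 in naive cells, 378 and 387 in primed cells, then 6372 and 6455 in NPCs, with 3184 and 3013 in CMs. Primed cells thus lay lowest and NPCs highest, and the ranges of the stages did not overlap. On the common scale, Chd3 was 3.07- and 2.97-fold lower in primed than in naive cells (log2 -1.62 and -1.57), 4.28- and 4.13-fold higher in NPCs and 2.24- and 2.05-fold higher in CMs.

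The base mean of Chd4 was 23647 and 22755 in naive cells, 13850 and 14037 in primed cells, then 12849 and 13722 in NPCs, with 14642 and 13878 in CMs. In the 8 tables this placed Chd4 between the 98.8 and 99.5 percentile of genes whose base mean reached 10. Its log2 differences from naive cells were small, at 0.35 and 0.45 in primed cells, then -0.11 and -0.03 in NPCs, with 0.14 and 0.08 in CMs. The NPC direction turned when levels were scaled to the summed base means.

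The ratio of the paralogues within a table does not depend on any scale between tables. Of the reads of both genes, Chd3 held 9.67% and 10.1% in naive cells, 2.66% and 2.68% in primed cells, then 33.2% and 32.0% in NPCs, with 17.9% and 17.8% in CMs. The 95% exact binomial interval, which covers counting error only, ran from 2.53% to 2.79% for the primed KO4 table and from 32.8% to 33.5% for the NPC KO4 table. Chd3 to Chd4 was thus 3.92- and 4.06-fold lower in primed than in naive cells and 4.63- and 4.203-fold higher in NPCs than in naive cells. Between primed cells and NPCs it differed by 18.2- and 17.1-fold. The tables of a stage differed by at most 0.08 on the log2 scale, against a range of 4.18 over the 8 tables. Those gaps are not independent errors, since the tables of a stage share their WT libraries. Per length of exon (8463 and 8019 bases), Chd3 still made up no more than 32.0% of the pair in any table.

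**Figure D1:**
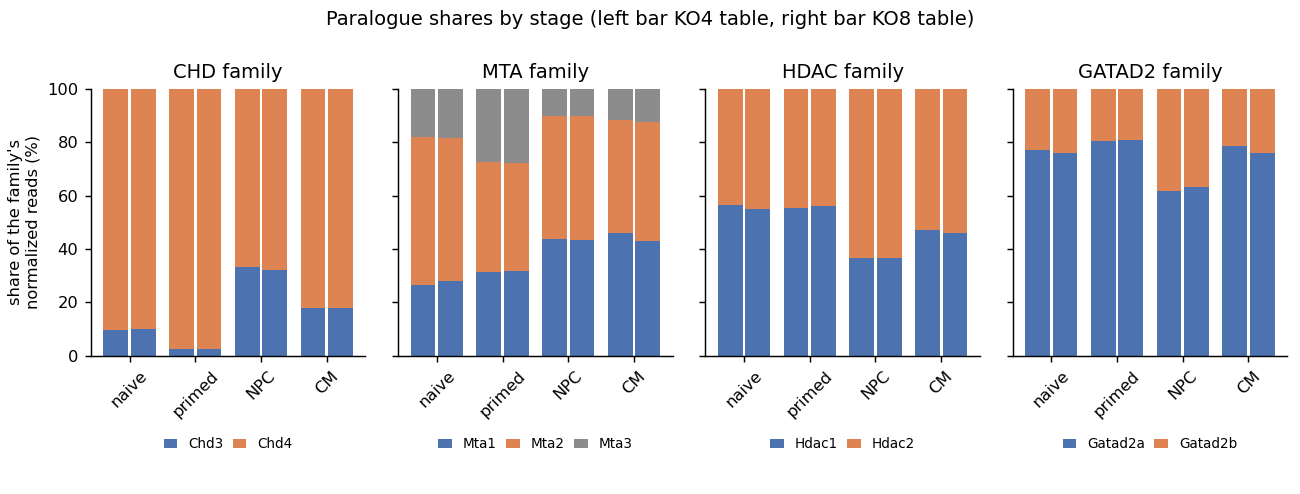
Share of each paralogue in the normalized reads of its family (y axis, %) in the 4 stages (x axis), with the KO4 table on the left and the KO8 table on the right of each pair of bars. Chd3 ranges from 2.66% of its pair in primed cells to 33.2% in NPCs, Mta3 from 10.1% in NPCs to 27.6% in primed cells, Hdac2 from 43.7% in naive cells to 63.2% in NPCs, and Gatad2b from 19.0% in primed cells to 38.4% in NPCs.

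Among the MTA scaffolds, Mta2 held its highest read share in naive cells (55.3% and 53.7%) and Mta3 its highest in primed cells and its lowest in NPCs. Mta1 was at 26.7% and 27.9% in naive cells, 31.3% and 31.6% in primed cells and 42.9% to 46.0% in NPCs and CMs. In primed cells Mta2 was at 41.3% and 40.8%, and it had more reads than Mta1 in every table but the CM KO4 table. The genes are Mta1 (chr12:114336489-114375417, plus strand), Mta2 (chr19:9016365-9026793, plus strand) and Mta3 (chr17:84105503-84223055, plus strand). Mta1 had base means of 5370 and 5566 in naive cells, 2704 and 2714 in primed cells, then 3937 and 3969 in NPCs, with 4419 and 3911 in CMs. Mta2 had 11141 and 10705 in naive cells, 3567 and 3500 in primed cells, then 4151 and 4279 in NPCs, with 4090 and 4073 in CMs. The naive values of Mta2 were the highest, and on the common scale they stayed so: its log2 difference from naive cells was -0.52 and -0.47 in primed cells, then -0.66 and -0.62 in NPCs, with -0.61 and -0.60 in CMs. Mta1 was at 0.13 and 0.11, 0.32 and 0.22, and 0.55 and 0.29 in the same comparisons. With levels scaled to the summed base means, NPCs lay at 0.65 and 0.56 for Mta1 and at -0.32 and -0.27 for Mta2. CMs lay at 0.72 and 0.44 for Mta1 and at -0.44 and -0.44 for Mta2 on that scale. Which of these genes differed more between NPCs and naive cells thus depended on the scale.

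The read ratio of Mta1 to Mta2 was 0.48 and 0.52 in naive cells, 0.76 and 0.78 in primed cells, then 0.95 and 0.93 in NPCs, with 1.08 and 0.96 in CMs. From naive cells to CMs this is a 2.24- and 1.85-fold difference. The ranges of the stages did not overlap, but the gap between the CM tables, 0.17 on the log2 scale, was as wide as some distances between stages. Per length of exon, Mta1 (3104 bases) and Mta2 (4093 bases) were level in primed cells, with ratios of 1.00 and 1.02. In naive cells Mta2 exceeded Mta1 on that measure (0.64 and 0.69), and in NPCs and CMs Mta1 exceeded Mta2. With the length of the longest transcript, primed cells also had less Mta1 (37.9% and 38.3% of the 3 MTA genes) than Mta2 (45.02% and 44.5%).

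Mta3, the scaffold whose product is described in hormone-dependent epithelia and in germinal-center B cells, had base means of 3622 and 3669 in naive cells, 2372 and 2374 in primed cells, then 904 and 925 in NPCs, with 1106 and 1132 in CMs. Of the reads of the 3 MTA genes it held 18.0% and 18.4%, 27.4% and 27.6%, 10.1% and 10.1%, and 11.5% and 12.4% in that order. Its ratio to Mta1 was 3.82- and 3.75-fold lower in NPCs than in primed cells. On the common scale Mta3 was higher in primed than in naive cells by log2 0.51 and 0.52 and lower in NPCs by log2 -1.24 and -1.28. The latter difference shrank to -0.90 and -0.94, short of 2-fold, when levels were scaled to the summed base means.

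The deacetylase pair reversed its order between stages. They are Hdac1 (chr4:129193348-129219957, minus strand) and Hdac2 (chr10:36694350-36721695, plus strand). Hdac1 had base means of 16163 and 15879 in naive cells, 5109 and 5092 in primed cells, then 2810 and 3018 in NPCs, with 3955 and 3730 in CMs. Hdac2 had 12524 and 13009, 4111 and 3983, 4831 and 5191, and 4408 and 4391. More reads fell on Hdac1 in naive and primed cells, and more on Hdac2 in NPCs and CMs. The read ratio of Hdac2 to Hdac1 was 0.77 and 0.82 in naive cells, 0.80 and 0.78 in primed cells, then 1.72 and 1.72 in NPCs, with 1.11 and 1.18 in CMs. The naive and primed ranges overlapped, and NPCs lay 2.22- and 2.10-fold above naive cells. Per length of exon Hdac2 exceeded Hdac1 only in NPCs, at 1.32 in both tables, and reached 0.86 and 0.90 in CMs. With the length of the longest transcript the pair was nearly even in NPCs, where Hdac2 made up 51.9% in both tables. In CMs Hdac2 made up 41.1% and 42.5% on that measure.

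On the common scale the difference was mainly one of Hdac1, which was 3.38- and 3.23-fold lower in NPCs and 2.30- and 2.45-fold lower in CMs than in naive cells. Hdac2 was lower by log2 -0.61 and -0.62 in NPCs, with -0.67 and -0.77 in CMs. Both genes were lower in primed than in naive cells, Hdac1 by log2 -0.54 and -0.49 and Hdac2 by -0.48 and -0.56. These directions held with levels scaled to the summed base means.

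Mbd3 (chr10:79855284-79862295, minus strand), the member that defines the mESC form of the complex, stood highest in primed cells on the common scale. Its base mean was 5907 and 5587 in naive cells, 4102 and 4097 in primed cells, then 3170 and 3315 in NPCs, with 3309 and 3510 in CMs. The primed level was higher than the naive one by log2 0.60 and 0.70, while NPCs (-0.13 and -0.05) and CMs (-0.004 and 0.13) lay close to naive cells, with no direction that held over both scales. Per length of exon, Mbd3 was the most abundant of the 10 members in primed cells, at 2822 and 2857 scaled reads per kilobase, ahead of Chd4 at 2361 and 2425. With the length of the longest transcript, Hdac1 (3427 and 3461) stood slightly above Mbd3 (3374 and 3415) there.

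Mbd2, whose product replaces MBD3 in a separate form of the complex, was counted among the other subunits. Its base mean was 450 and 473 in naive cells, 206 and 189 in primed cells, then 916 and 909 in NPCs, with 535 and 765 in CMs. It therefore held 7.08% and 7.80% of the reads of both MBD genes in naive cells and 22.4% and 21.5% in NPCs. The ratio of Mbd2 to Mbd3 was 3.79- and 3.24-fold higher in NPCs than in naive cells and 1.52- and 1.83-fold lower in primed cells. On the common scale Mbd2 itself differed little between primed and naive cells (log2 -0.002 and -0.17). It was higher than in naive cells by log2 1.79 and 1.64 in NPCs and 1.08 and 1.49 in CMs.

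Between the GATAD2 proteins, which link the deacetylase part to the ATPase, Gatad2a had more reads at every stage and the share of Gatad2b was highest in NPCs. Their genes are Gatad2a (chr8:72430968-72520278, minus strand) and Gatad2b (chr3:90145576-90162042, plus strand). Gatad2a had base means of 11197 and 10699 in naive cells, 6030 and 6160 in primed cells, then 3246 and 3473 in NPCs, with 5251 and 4978 in CMs. Gatad2b had 3340 and 3355, 1461 and 1445, 2022 and 2012, and 1438 and 1560. Gatad2b thus held 23.0% and 23.9%, 19.5% and 19.0%, 38.4% and 36.7%, and 21.5% and 23.9% of the pair. The NPC ratio was 2.09- and 1.85-fold above the naive one, and the naive and CM ranges overlapped.

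On the common scale Gatad2b differed little between naive cells and NPCs (log2 0.04 and -0.03), whereas Gatad2a was lower in NPCs by log2 -1.02 and -0.92. When scaled to the summed base means, these differences were 0.38 and 0.31 for Gatad2b and -0.69 and -0.57 for Gatad2a. Gatad2a was slightly higher in primed cells (0.23 and 0.35). Levels per length are uncertain for Gatad2b. GENCODE vM1, the annotation of mm9 used here for lengths and positions, begins this gene 48.5 kb downstream of the RefSeq start whose promoter is printed above and gives it only 1906 bases of exon. The gene models with which the authors counted reads may differ from it.

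**Figure D2:**
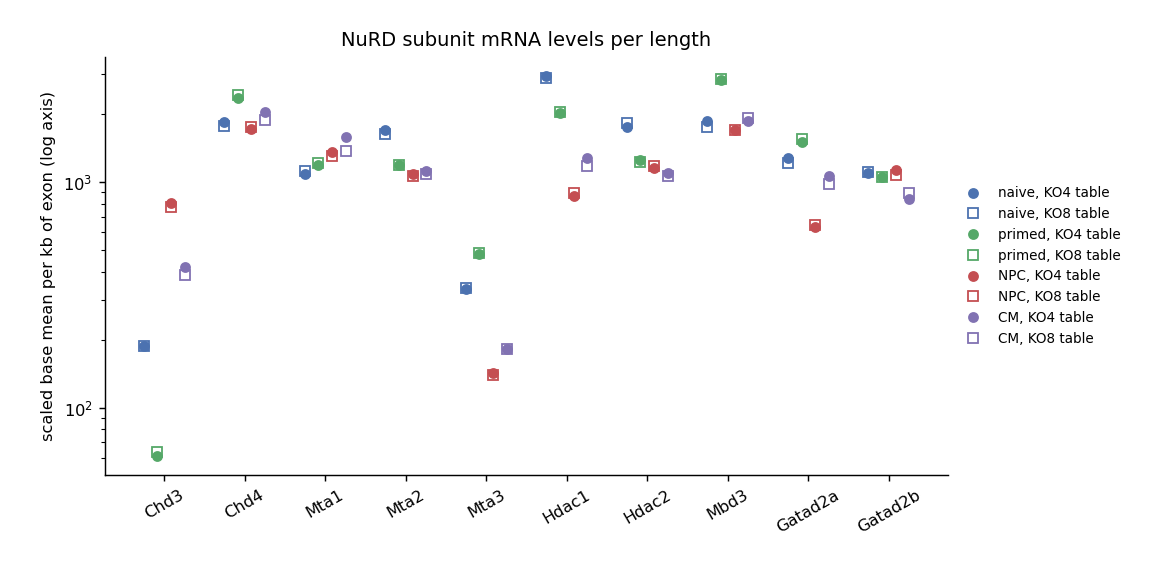
Base mean on the common scale per kilobase of exon (y axis, log axis) for the 10 members (x axis), with 1 point per table (filled circles for KO4 tables, open squares for KO8 tables) and stages by color. Chd3 in primed cells (61.1 and 63.4) is the lowest and Hdac1 in naive cells (2942 and 2884) the highest point, and in each stage the tables lie close together.

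Per length, the order of the members also differed by stage. In naive cells Hdac1 led with 2942 and 2884 scaled reads per kilobase, followed by Mbd3, Chd4, Hdac2 and Mta2, which lay between 1636 and 1864. The tables of Mbd3, Chd4 and Hdac2 overlapped, and those of Mta2 lay just under them. In NPCs Chd4 (1709 and 1744) and Mbd3 (1702 and 1700) led, Hdac1 was at 870 and 893, and Chd3 (803 and 777) exceeded Gatad2a (629 and 643). In CMs Chd4 (2038 and 1880) and Mbd3 (1859 and 1919) led and overlapped. Mta3 was the lowest member in NPCs (142 and 139) and CMs (182 and 181), and Chd3 in naive (188 and 188) and primed cells (61.1 and 63.4). The naive order under Hdac1 depended on the length used. With the length of the longest transcript, Hdac2 (2417 and 2504) came next. Mta2 (2229 and 2137) then overlapped Mbd3 (2229 and 2103) and Chd4 (2214 and 2126).

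The other subunits of the complex followed no single pattern. Rbbp4, which binds histone H4 and other proteins, had a base mean of 24237 and 24462 in naive cells and 7459 and 8026 in NPCs, a log2 difference of -0.93 and -0.90 on the common scale. Its paralogue Rbbp7 stood at 12697 and 12238 in naive cells, 8038 and 7436 in primed cells and 8126 and 8524 in NPCs. On the common scale Rbbp7 was higher than in naive cells, by log2 0.46 and 0.43 in primed cells and 0.12 and 0.18 in NPCs. In CMs Rbbp7 was at 6850 in the KO4 table and 10723 in the KO8 table, and the CM range of its ratio to Rbbp4 overlapped that of NPCs. Cdk2ap1, a small accessory subunit, was higher in primed than in naive cells by log2 1.74 and 1.69. Chd5, the neuronal CHD ATPase, had base means of 239 and 246 in naive cells and 282 and 309 in primed cells, where Chd3 had 378 and 387. It stood at 63.2 and 56.4 in NPCs and 36.0 and 27.9 in CMs. On the common scale Chd5 was 2.56- and 2.77-fold higher in primed than in naive cells. Against naive cells it was 2.21- and 2.65-fold lower in NPCs and 3.67- and 4.94-fold lower in CMs.

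A difference of at least 2-fold in both tables was used to count genes, with no test. Against naive cells, 0 of the 10 members were higher in primed cells and 1 was lower (Chd3), beside 13.0% and 8.47% of the 14931 genes that passed the minimum level. In NPCs 1 was higher (Chd3) and 2 were lower (Mta3 and Hdac1), beside 28.9% and 21.6% of genes. In CMs 1 was higher (Chd3) and 1 lower (Hdac1), beside 25.8% and 14.9%. Between NPCs and CMs 0 were higher and 0 lower, beside 8.22% and 9.64%, with Chd3 nearest at log2 0.94 and 1.01. These shares of members are counts over 10 genes and were not tested against the background. The median log2 difference of the members was 0.03 and 0.02 in primed cells, then -0.37 and -0.33 in NPCs, with -0.32 and -0.31 in CMs, beside medians over all genes of 0.039 and 0.029, 0.015 and 0.004, and 0.005 and 0.013. Scaling to the summed base means shifted the members' log2 differences by -0.0597 to 0.348, so the member medians also depend on the scale.

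Scaling to the summed base means moved the median log2 difference over all genes to 0.354 and 0.355 for NPCs against naive cells and to 0.183 and 0.173 for CMs against naive cells. On that scale, 69.7% of the genes past 2-fold between NPCs and naive cells were higher in NPCs, against 57.2% on the common scale, and between NPCs and CMs the share higher in NPCs was 56%, against 46%. The ratios of paralogues are the same on both scales.

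**Figure D3:**
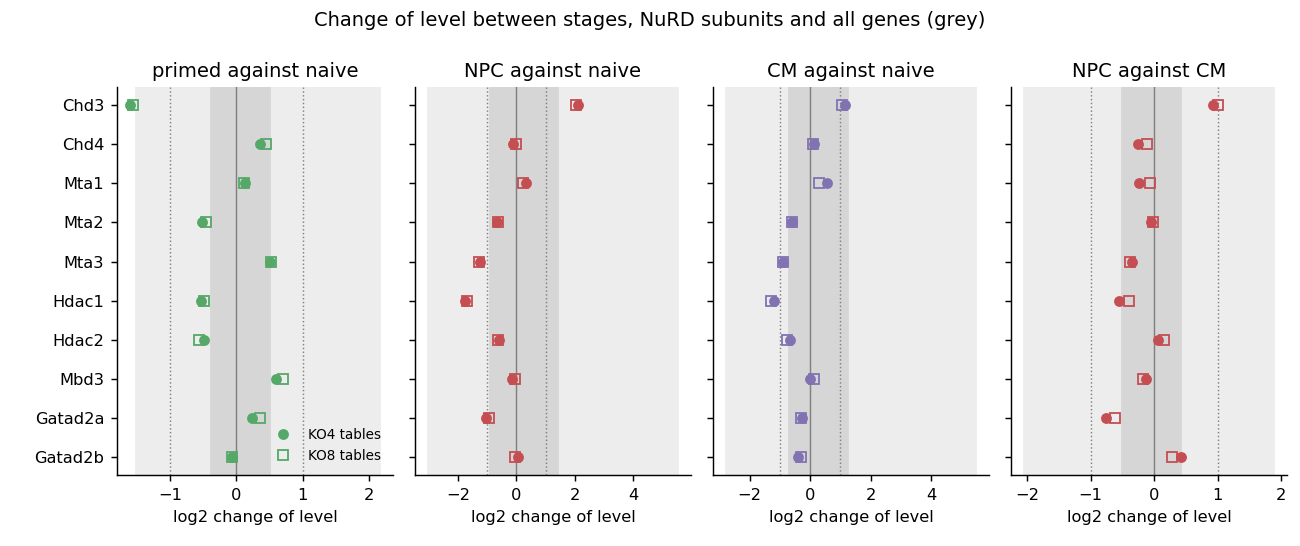
Log2 change of level (x axis, a separate range in each panel) of the 10 members (y axis) in 4 comparisons of stages, with filled circles for the KO4 tables and open squares for the KO8 tables. The light band runs from the 5 to the 95 percentile of all genes, the dark band from the 25 to the 75 percentile, and dotted lines mark 2-fold; Chd3 lies at -1.62 and -1.57 in primed cells and at 2.10 and 2.05 in NPCs, and Hdac1 at -1.76 and -1.69 in NPCs.

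Factors that work with NuRD moved in both directions. Of the 18 listed partner factors, 6 were higher and 0 lower in primed than in naive cells, 5 higher and 4 lower in NPCs, and 8 higher and 2 lower in CMs. Over all genes the shares higher and lower were 13.0% and 8.47% for primed cells, 28.9% and 21.6% for NPCs, and 25.8% and 14.9% for CMs, and the lists that follow have the same background. Of the partner factors, 3 were higher at all 3 later stages: Adnp, which forms a complex with CHD4, and the zinc finger factors Bcl11a and Bcl11b. Bcl11a was higher by log2 4.62 and 5.05 in primed cells, then 6.90 and 7.37 in NPCs, with 2.27 and 2.81 in CMs, and Adnp by 1.42 and 1.25, 1.79 and 1.62, and 1.00 and 1.28. Bcl11b was higher by 2.60 and 2.26, 5.13 and 4.56, and 2.55 and 2.26. Sall4, a zinc finger factor of pluripotent cells that recruits NuRD, was lower in NPCs by log2 -3.63 and -3.30 and in CMs by -1.03 and -1.17.

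The list of subunits of other complexes with HDAC1 and HDAC2 (Sin3, CoREST, MiDAC and MIER) has 27 names, of which Mideas and Elmsan1 are the same gene, and 26 were in the tables. In primed cells 1 was higher and 2 were lower than in naive cells, in NPCs 4 and 2, and in CMs 1 and 1. Over all genes, 28.9% were higher and 21.6% lower in NPCs, and 25.8% and 14.9% in CMs, and the counts were not tested against these shares. Phf21a, a histone-binding partner of CoREST, was higher at all 3 stages (log2 1.31 and 1.34, 2.51 and 2.32, and 1.39 and 1.60). Among the 9 other histone deacetylase genes, Hdac3 to Hdac11, 1 was higher and 1 lower in primed cells, then 4 and 0 in NPCs, with 2 and 0 in CMs, beside the same shares of all genes. Hdac9 was higher at all 3 stages, with log2 4.87 and 5.06 in NPCs and 4.85 and 5.41 in CMs.

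Among 16 other remodeling ATPases, 3 were higher and 1 lower in primed cells, then 3 and 4 in NPCs, with 3 and 3 in CMs, beside 13.0% and 8.47%, 28.9% and 21.6%, and 25.8% and 14.9% of all genes. Chd7 (log2 1.50 and 1.49, 1.85 and 1.80, and 2.69 and 2.23) and the ISWI ATPase Smarca1 (2.36 and 2.30, 2.66 and 2.55, and 2.18 and 2.81) were higher at all 3 stages. The listed genes named here, other than the further NuRD subunits, were picked after their values were seen, as those past 2-fold at all 3 later stages, apart from Sall4.

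Across the 8 tables, some members had parallel levels and others opposite ones. Pearson's r of the log2 level was 0.976 for Mta2 and Hdac2, 0.961 for Chd4 and Mbd3 and 0.933 for Mta3 and Gatad2a, but -0.983 for Chd3 and Mta3 and -0.940 for Chd3 and Gatad2a. These values describe 4 stages in 8 tables that share WT libraries pair by pair, so they carry no p-value. Among 11470 genes with a mean level of at least 100, the one most like Chd3 was Accs (r = 0.998), and 557 genes had an r over 0.95 with it. The gene most like Hdac1 was Xrn2 (r over 0.95 for 1050 genes) and the one most like Mta3 was Rps6 (1595 genes). Fewer genes ran like Mta1 (36, led by Lix1), Gatad2b (55, led by Map2k7), Chd4 (78, led by Bola1) and Mbd3 (96, led by Glod4). The closest genes were Ube2q1 for Mta2, Naa35 for Hdac2 and Arf6 for Gatad2a. With 4 stages, many genes reach a high r.

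Because the tables of a stage share their WT libraries, the difference of their base means is that of the clones. It was expressed as KO8 minus KO4 in percent of the pooled level, the mean of both base means after the tables were brought to 1 scale. It compares 2 clones with no test, and the ranges given for it cover counting error only. In naive cells the members lay between -11.6% (Mbd3) and 7.15% (Hdac2). None of the 10 reached 20% in either direction, beside 2.74% of the 6569 genes with a level of at least 1000 that were higher in KO8 and 1.40% that were higher in KO4. Chd4 (-8.13% ± 1.05), Mta2 (-8.43% ± 1.53) and Gatad2a (-9.54% ± 1.53) were lower in KO8, and Mta1 (6.72% ± 2.16) was higher. Of the members 5 of 10 were above 0, beside 42.4% of those genes.

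In primed cells the members lay between -1.77% (Hdac2) and 9.11% ± 10.1 (Chd3), and 9 of 10 were above 0, beside 44.8% of genes. Of those above 0, Chd3, Mta2 (0.80% ± 3.32) and Gatad2b (2.49% ± 5.17) lay within their counting error. Chd3, at a pooled level of 378, also lay under the level of 1000 that the background genes had. Again 0 reached 20%, beside 1.15% of 3912 genes higher in KO8 and 0.869% higher in KO4. Chd4 was at 7.26% ± 1.67 and Gatad2a at 8.84% ± 2.52, the opposite side from naive cells. In NPCs the range was -8.85% (Gatad2b) to 6.60% (Hdac2), with 0 past 20%, beside 3.19% and 4.63% of 4834 genes higher in KO8 and in KO4. Above 0 were 5 of 10, beside 43.7% of genes. Chd3 (-5.22% ± 2.42) and Chd4 (5.36% ± 1.68) lay on opposite sides there.

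In CMs the clones differed more, in the members as in other genes. Mta1 was higher in KO4, at -31.2% ± 3.01, and was the 1 member past 20%; 0 members were past 20% on the KO8 side. Of 4893 genes, 22.7% were higher in KO8 and 27.1% higher in KO4 by that much. Hdac1 (-18.5% ± 3.13), Chd3 (-17.9% ± 3.49), Chd4 (-17.6% ± 1.63) and Gatad2a (-17.5% ± 2.72) were also lower in KO8. Gatad2b (9.39% ± 5.02) and Mbd3 (4.97% ± 3.33) were higher, the 2 of 10 members above 0, beside 46.5% of genes. Outside the members, Rbbp7 was higher in KO8 by 81.6% ± 2.08 and Mbd2 by 64.2% ± 7.64, beside a 95 percentile of 69.6% over the 4893 genes. The other further subunits were higher in KO4: Chd5 at -57.2% ± 34.3 on few reads, Cdk2ap1 at -19.5% ± 3.77 and Rbbp4 at -10.3% ± 2.07.

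Marker lists of other cells also differed between the CM tables. The 3 blood markers summed to 2553 in the KO4 table and 14370 in the KO8 table, the 5 fibroblast and smooth muscle markers to 41440 and 76100, the 4 endothelial markers to 10090 and 16390 and the 5 endoderm markers to 3651 and 7885. The 3 pluripotency markers summed to 17630 and 10930, the neural progenitor markers to 9135 and 3642 and the 4 neuron markers to 2113 and 677. All 10 lists had at least 3 markers at a base mean of 10 or more in both CM tables. The part of these cells in the CM differences was not tested.

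**Figure D4:**
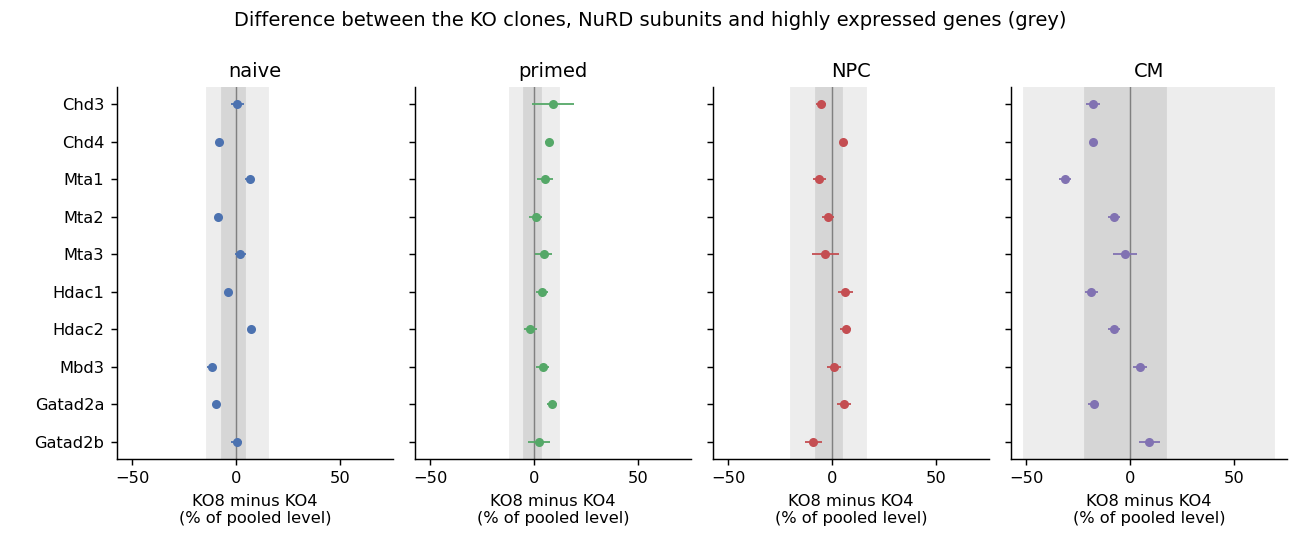
Difference KO8 minus KO4 in percent of the pooled level (x axis) of the 10 members (y axis) by stage; bars are the 95% counting error and the light band runs from the 5 to the 95 percentile and the dark band from the 25 to the 75 percentile of genes at a level of at least 1000. Members stay within -11.6% and 9.11% in naive cells, primed cells and NPCs and reach -31.2% (Mta1) in CMs, where the bands are also widest.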

How the data were processed

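Total RNA was extracted, and 27 mRNA-seq libraries were made and sequenced by a service provider. Per the labels and the methods, the authors used Trim Galore 0.6.7 for trimming, HISAT2 2.2 for alignment to mm9, featureCounts for the reads of each gene and DESeq2 1.46.0 for normalization and comparison within each table; how strand, multiple matches and reads shared by near-identical copies of a gene were counted is not given in the sources used here. The deposited base means, used by the name of their column, are a normalized signal: reads per gene divided by size factors and averaged over all libraries of a table (6 for naive, 4 for later stages), so values per library and the depth of single libraries are unknown here. A further 5 columns per table hold the authors' log2 fold change, standard error, Wald statistic, p-value and adjusted p-value and were not used. The planned tests of KO against WT and between stages, which needed values per library, were therefore not run. Solving reads per library from the base means was judged infeasible for the members from the digits given and was not attempted.

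The 8 tables were scaled by the median ratio to the geometric mean. Changes are differences of log2(level + 1) for the 14931 genes with a mean level of at least 10, and thus understate those of low genes. The clone difference was 2 × (KO8 table − KO4 table) as a percent of the pooled level, with tables of a stage brought to 1 scale by their median ratio. Exon lengths and gene positions came from GENCODE vM1 (NCBIM37, the same build as mm9; 20072 genes matched by symbol), which may differ from the gene models the authors counted with, and promoters from RefSeq (GRCm38.p6). Intervals of shares are exact (Clopper-Pearson) at 95%, with reads taken as base mean times libraries, and cover counting error only. Members and lists were chosen with earlier results of these data known, and the 2-fold, 20% and 1000-read limits after values were seen. The rule for named genes took all members and Zfp512b, list genes by count, and 1 most similar gene per member. The functions were tested on simulated data. Alternatives were another scale, pseudocounts, filters and gene lengths. Python 3.11.15 was used with numpy 2.4.6, pandas 2.3.3, scipy 1.17.1 and matplotlib 3.10.9.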

Additional observations from a re-analysis of the deposited data

How the results depend on the processing

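Of 128 repeats of the counts under other settings, 124 stayed within 1.5 times the count reported. The filters shifted the members' log2 changes by 0 and the pseudocounts by at most 0.008, so those repeats could hardly move the member counts. With levels scaled to the summed base means, 1 member instead of 2 was lower by 2-fold in NPCs than in naive cells, as Mta3 fell short, and 1 member instead of 0 (Chd3) was higher in NPCs than in CMs. The number of all genes higher in NPCs than in CMs was 1227, and became 1856 with no filter on low levels and 727 with a mean level of at least 50, settings that change which genes are counted. That scale moved the members' log2 changes by up to 0.348 and turned the direction of 12 of 80, all of them at most 0.175 in size; leaving out chromosome 8 from the scale turned 1, and pseudocounts of 0.5 and 5 turned none. Clone differences moved by at most 1.63 percentage points and none of 40 turned. The scale from single-read WT genes and shares without length were chosen after seeing the data. No paired analysis was possible because a base mean averages all libraries of a table and carries no replicate number. Other settings that need values per library (voom weights, no trend, only the groups compared, leaving out single libraries, a minimum fold beside a test, WT levels alone and the difference of the KO effect between stages) were not run. The number of libraries behind a base mean does not show how much libraries of a group differ.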
